A study of Mus musculus with 21 samples.

Results

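The expression of 10 genes of the S100 and annexin families was followed through all 7 groups of an RNA sequencing series from mouse spleen: S100a8, S100a9, S100a4, S100a6, S100a10, S100a11, Anxa1, Anxa2, Anxa3 and Anxa5. They were picked by symbol, and all 10 are among the 14273 genes of the deposited table. The series holds 21 libraries from C57BL/6 mice, 3 per group. Ter119+CD71+ cells, which carry the surface antigens of erythroid progenitors, were sorted with and without the leukocyte antigen CD45 in each of 3 statuses: bearing a tumor, anemic or neonatal. The last group was MDSC (myeloid-derived suppressor cells) of the tumor-bearing mice, sorted as CD11b+Gr1+ cells. The labels used here name neither the tumor, the way anemia was brought about nor the ages. Nor do they tell separate animals or sorts from repeats of 1 preparation, so a p-value here measures library-to-library spread that may be technical.

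S100 proteins are small calcium sensors of the EF-hand type that act as dimers. S100a8 and S100a9 (calgranulins A and B) pair to form calprotectin, an abundant cytosolic protein of neutrophils and monocytes that sequesters zinc and manganese and, once released, signals through Tlr4 and Ager (RAGE). Annexins bind acidic phospholipids of membranes when calcium rises, and several are docked by an S100 partner, S100a10 to Anxa2 and S100a11 to Anxa1. In the erythroid lineage neither calgranulin is a typical product, whereas Gr1+ myeloid cells are known for both.

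Values are given as deposited but out of the log2. The scale behind the log is not named, so levels of single genes are compared between libraries and not ranked against each other. Sums, shares and ratios below combine genes on that unnamed scale and are likewise read only between libraries. The 15 neutrophil markers (such as Mpo, Elane, Ltf, Camp, Ngp and Lcn2) were all in the table, and none was at 0 in a whole group. Their summed level ran from 14313.4 to 23120.7 in MDSC, 4141.6 to 9104.2 in tumor CD45+ cells, 3453.1 to 5433.4 in neonatal CD45+ cells and 240 to 733 in anemia CD45+ cells. In CD45- cells it was 5.47 to 64.7 (tumor), 24.5 to 50.6 (neonatal) and 1.6 to 5.35 (anemia). The sum of 11 erythroid markers was 114 to 1179.4 in MDSC, 2562.2 to 32083.8 over the CD45+ libraries and 26370.8 to 134005.4 over the CD45- libraries. Some libraries stood apart: tumor CD45+ library 3 had the neutrophil sum of 4141.6 beside 9087 and 9104.2 in its group, tumor CD45- library 3 had 5.47 beside 64.7 and 60.7, and anemia CD45+ library 3 had the highest neutrophil sum (733) and the lowest erythroid sum (2562.2) of its group. Library 3 had the lowest erythroid sum in 7 of 7 groups and the lowest neutrophil sum in 5 of 7. In such bulk samples, fewer cells of a type and less RNA per cell cannot be told apart.

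The promoter windows of 5 genes are printed because they put the letters of 4 genes whose mean was highest in MDSC (S100a8, S100a9, Anxa1, Anxa2) beside those of S100a4, whose order of groups differed. They were chosen after the values were seen, and S100a6, S100a11 and Anxa3 also had their highest mean in MDSC. Each runs from 250 bases before to 10 bases after the RefSeq gene start in build GRCm38.p6, read 5′ to 3′ on the gene's strand. RefSeq windows matched 8 of the 10 genes; S100a10 and Anxa3 had no entry. Capitals mark matches to the TATA box, C/EBP, PU.1, AP-1, GATA and GC box motifs, whose letters follow the sequences; all 7 motifs were searched on both strands. The STAT motif, TTCNNNGAA, was in none of the 8 windows and in 7.33% of all 32851 windows.
S100a8 (chr3:90668821-90669080, plus strand): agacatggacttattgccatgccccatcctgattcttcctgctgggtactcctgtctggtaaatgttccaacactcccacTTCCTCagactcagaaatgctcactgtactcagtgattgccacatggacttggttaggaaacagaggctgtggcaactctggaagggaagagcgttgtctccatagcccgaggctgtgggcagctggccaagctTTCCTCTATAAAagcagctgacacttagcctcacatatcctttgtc
S100a9 (chr3:90695712-90695971, minus strand): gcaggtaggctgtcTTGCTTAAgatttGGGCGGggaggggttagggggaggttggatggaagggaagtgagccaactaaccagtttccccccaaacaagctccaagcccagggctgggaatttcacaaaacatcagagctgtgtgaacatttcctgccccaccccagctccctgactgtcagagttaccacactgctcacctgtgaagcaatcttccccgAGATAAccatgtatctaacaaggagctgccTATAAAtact
Anxa1 (chr19:20390662-20390921, minus strand): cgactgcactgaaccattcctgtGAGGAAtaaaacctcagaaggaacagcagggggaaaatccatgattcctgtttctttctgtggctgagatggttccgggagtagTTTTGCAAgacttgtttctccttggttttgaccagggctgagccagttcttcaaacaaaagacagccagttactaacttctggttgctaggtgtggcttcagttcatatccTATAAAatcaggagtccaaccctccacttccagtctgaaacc
Anxa2 (chr9:69453433-69453692, plus strand): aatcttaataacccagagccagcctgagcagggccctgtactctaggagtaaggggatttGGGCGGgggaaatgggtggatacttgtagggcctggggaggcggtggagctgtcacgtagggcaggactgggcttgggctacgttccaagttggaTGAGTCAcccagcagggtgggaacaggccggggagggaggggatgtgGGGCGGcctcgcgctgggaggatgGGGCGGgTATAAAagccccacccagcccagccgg
S100a4 (chr3:90603520-90603779, plus strand): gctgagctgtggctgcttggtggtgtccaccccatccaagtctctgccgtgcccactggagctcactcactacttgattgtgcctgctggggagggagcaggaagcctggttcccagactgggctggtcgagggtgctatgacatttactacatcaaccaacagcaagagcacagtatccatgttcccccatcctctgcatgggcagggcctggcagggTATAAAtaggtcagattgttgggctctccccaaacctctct
No marked motif overlaps another. The TATA box letters, TATAAA, were in 5 of the 8 windows, against 12.7% of all windows, and began at positions -30 (S100a8), -32 (Anxa1), -31 (S100a4) and -17 (Anxa2), counted from the start as 1. In S100a9 they began at position 1, the RefSeq start itself. The C/EBP letters, TTNNGCAA, were in 2 of 8 windows, S100a9 and Anxa1, against 9.85% of all. The PU.1 letters, GAGGAA, were in 3 of 8 (S100a8, S100a11, Anxa1) against 24.1%. In S100a8 they lay on the other strand, at -170 and again at -36, directly before the TATA box. The AP-1 letters, TGAGTCA, were in 2 of 8 (S100a11, Anxa2) against 4.65%. The GATA letters, AGATAA, were in 2 of 8 (S100a9, S100a11) against 10.3% of all windows. The GC box, GGGCGG, was in 3 of 8 (S100a9, S100a11, Anxa2) against 33.4%. The windows of S100a6 and Anxa5 held none of the 7 motifs. A match describes letters and not a bound site. In RefSeq gene order S100a8 and S100a9 are neighbours on chromosome 3, as are S100a11 and S100a10, and S100a4 and S100a6 are separated only by S100a5. Anxa5 is also on chromosome 3, Anxa1 on 19, Anxa2 on 9 and Anxa3 on 5.

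The calgranulins spanned the widest range. S100a8 was at 15126.9, 17354.3 and 23107.3 in MDSC, 9329.3, 10057.6 and 3411.7 in tumor CD45+ cells, 3275.6, 2840.2 and 2667.2 in neonatal CD45+ cells and 247, 130 and 913 in anemia CD45+ cells. In CD45- cells it was at 139, 70.2 and 12 (tumor), 67.1, 50.9 and 41.7 (neonatal) and 3.72, 2.52 and 3.05 (anemia). The first 4 groups did not overlap at any step of that order. Anemia CD45+ library 2 (130) lay below tumor CD45- library 1 (139). Among the CD45- groups, tumor and neonatal cells overlapped and anemia cells lay below both. Against the MDSC mean of 18529.5 ± 4117.9 (SD, n = 3), the mean was 41% in tumor, 15.8% in neonatal and 2.32% in anemia CD45+ cells.

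S100a9, the partner of S100a8, kept the same order. It was at 18753.4, 20836.3 and 31551.8 in MDSC, 12033.1, 12469.3 and 4756.1 in tumor CD45+, 3925, 3527.2 and 3897.3 in neonatal CD45+ and 287, 167 and 1445.8 in anemia CD45+ cells. In CD45- cells the values were 184, 187 and 16 (tumor), 103, 72.2 and 59.4 (neonatal) and 6.29, 6.02 and 4.88 (anemia), and anemia CD45+ library 2 (167) again lay within the tumor CD45- range. Group means were 41.1%, 16% and 2.67% of the MDSC mean for tumor, neonatal and anemia CD45+ cells. The neutrophil marker sum stood at 37.6%, 22.3% and 2.3% of its MDSC mean in the same groups, and its part in the calgranulin result was not tested. The sum is weighted to its highest genes, and its genes did not all fall alike. Group means in MDSC, tumor CD45+ and neonatal CD45+ cells were 5593.8, 1301.9 and 808 for Ngp and 3930.2, 1473.2 and 537 for Lcn2. They were 618, 638 and 705 for Mpo, 283, 282 and 226 for Elane and 360, 320 and 238 for Prtn3. In anemia CD45+ cells all of these were low, at 69.8 (Ngp), 68.9 (Lcn2), 10.1 (Mpo), 4.93 (Elane) and 5.07 (Prtn3). S100a8 and S100a9 together made up 14.9% ± 3.4 (SD, n = 3) of all summed values in MDSC, 6.55% ± 2.74 in tumor, 2.59% ± 0.22 in neonatal and 0.46% ± 0.5 in anemia CD45+ cells.

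**Figure D1:**
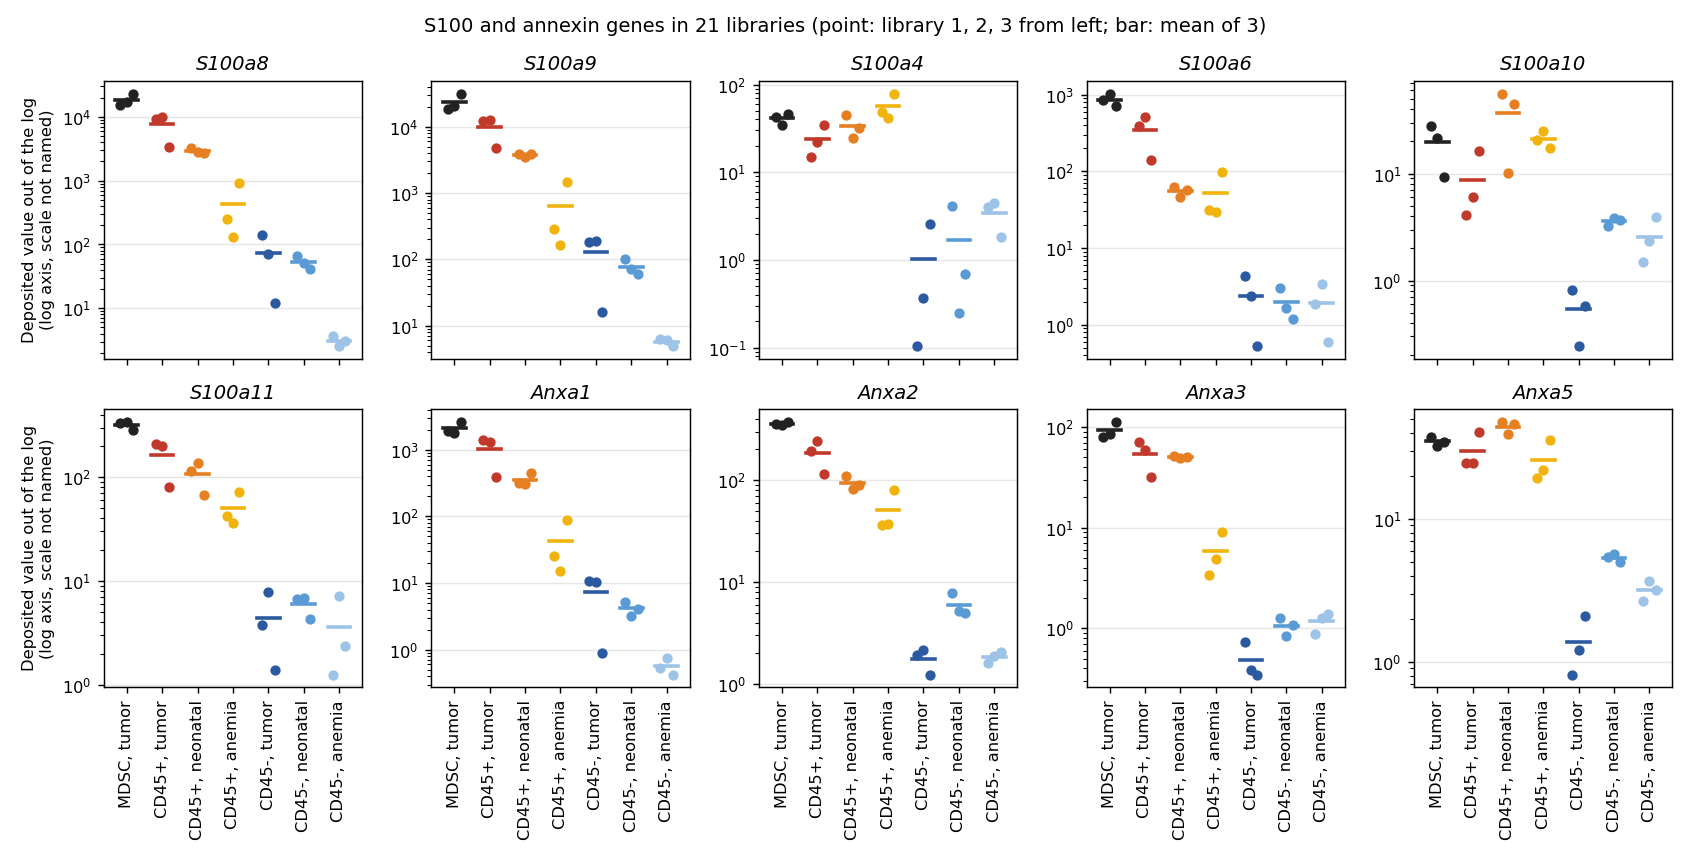
Deposited value out of the log (log axis, scale not named) of each of the 10 genes in 21 libraries, in 7 groups; each point is a library, in replicate order from left, and each bar the mean of 3. S100a8 ranges from a mean of 18529.5 in MDSC to 3.1 in anemia CD45- cells, while S100a4, S100a10 and Anxa5 each have a CD45+ group whose mean lies above that of MDSC.

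In MDSC and CD45+ cells the ratio of S100a9 to S100a8 within a library moved little while the levels of both genes moved widely. It was 1.27 ± 0.0861 (SD, n = 3) in MDSC, 1.31 ± 0.0787 in tumor CD45+, 1.3 ± 0.141 in neonatal CD45+ and 1.34 ± 0.218 in anemia CD45+ cells. In CD45- cells it was 1.78 ± 0.772 (tumor), 1.46 ± 0.0668 (neonatal) and 1.89 ± 0.432 (anemia). The anemia CD45- ratios (1.69, 2.39 and 1.6) were higher than in any MDSC or CD45+ library. Over all 21 libraries the ratio lay between 1.16 and 2.67, with the highest value in tumor CD45- library 2. The pair encoding the Anxa2 and S100a10 complex did not keep step in this way. The ratio of S100a10 to Anxa2 was 0.0789, 0.0623 and 0.0251 in MDSC and 0.0209, 0.025 and 0.142 in tumor CD45+ cells. It was 0.503, 0.124 and 0.505 in neonatal CD45+, 0.565, 0.667 and 0.218 in anemia CD45+ and 0.949, 1.24 and 1.9 in anemia CD45- cells. In the other CD45- groups the ratio was 0.423, 0.113 and 0.471 (tumor) and 0.418, 0.737 and 0.734 (neonatal). For this ratio too, the anemia CD45- libraries lay above those of every CD45+ group and of MDSC, as did neonatal CD45- libraries 2 and 3. The anemia CD45- ratios rest on low values, 1.5 to 3.89 for S100a10 and 1.59 to 2.04 for Anxa2. The ratio is of values on the deposited scale and is not a ratio of molecules.

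**Figure D2:**
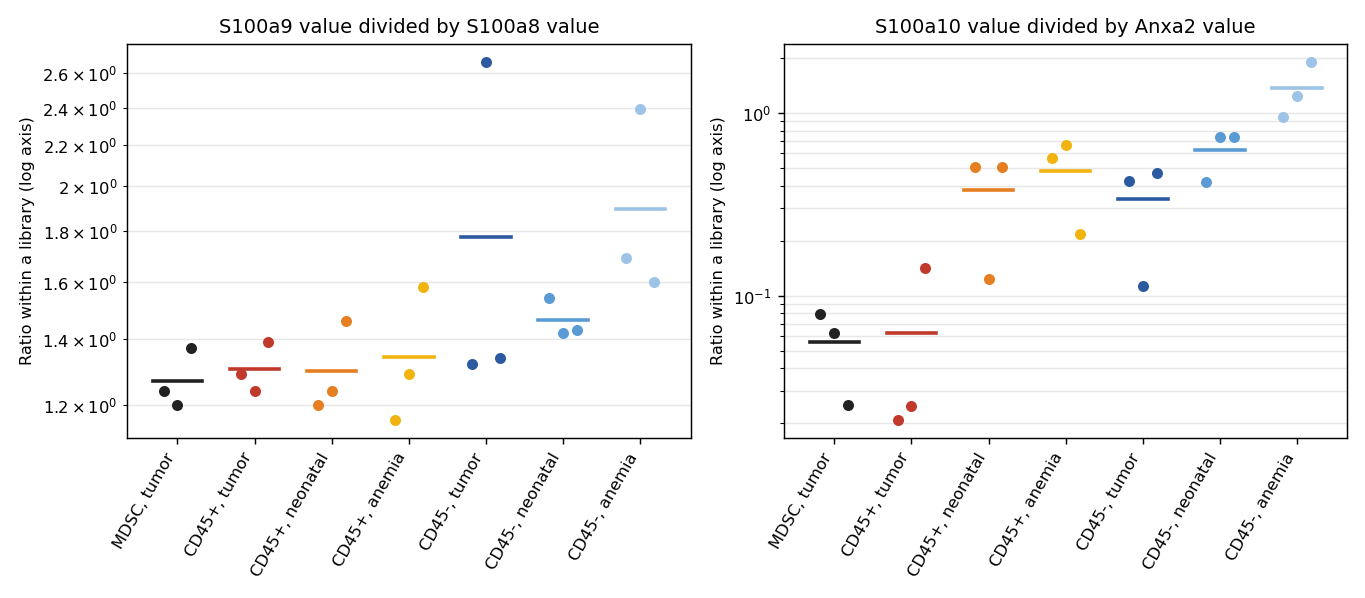
Ratio within each library (log axes) of S100a9 to S100a8, left, and of S100a10 to Anxa2, right, in 7 groups of 3 libraries; bars are means. The left ratios lie between 1.16 and 2.67 and the right ratios between 0.0209 and 1.9.

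Among the annexins, Anxa1, which restrains leukocyte recruitment through the receptor Fpr2, ran closest to the calgranulins. It was at 1918.1, 1770.4 and 2606.6 in MDSC, 1423, 1295.3 and 388 in tumor CD45+, 320, 301 and 451 in neonatal CD45+ and 25.8, 15 and 88.9 in anemia CD45+ cells. In CD45- cells it was at 10.6, 10.2 and 0.895 (tumor), 5.2, 3.23 and 4.08 (neonatal) and 0.533, 0.74 and 0.42 (anemia). Tumor CD45+ library 3 fell within the neonatal CD45+ range, and the anemia libraries lay below both. Its partner S100a11 changed over a smaller range: 328, 339 and 281 in MDSC, 206, 201 and 80.5 in tumor, 114, 137 and 66.8 in neonatal and 42, 36.5 and 72.5 in anemia CD45+ cells. Each CD45+ group overlapped the next in that order, and MDSC lay above all. CD45- libraries ranged from 1.25 to 7.89. The S100a11 to Anxa1 ratio was accordingly 0.157 ± 0.0435 (SD, n = 3) in MDSC, 0.169 ± 0.0335 in tumor CD45+, 0.319 ± 0.156 in neonatal CD45+ and 1.63 ± 0.808 in anemia CD45+ cells.

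Anxa2, a membrane and actin linker that also binds plasminogen at the cell surface with S100a10, was at 355, 348 and 372 in MDSC, 195, 240 and 114 in tumor CD45+, 111, 81.3 and 88.7 in neonatal CD45+ and 36.7, 37.2 and 80.1 in anemia CD45+ cells. These 4 groups did not overlap. In CD45- cells it was at 1.93, 2.14 and 1.23 (tumor), 7.74, 5.2 and 5.01 (neonatal) and 1.59, 1.9 and 2.04 (anemia), with the neonatal libraries above the others. S100a10 had another order. It was at 28, 21.7 and 9.34 in MDSC, 4.08, 5.99 and 16.2 in tumor CD45+, 55.9, 10.1 and 44.9 in neonatal CD45+ and 20.8, 24.8 and 17.5 in anemia CD45+ cells. Tumor CD45+ cells had the lowest mean of the 4 groups (8.77 ± 6.54 SD, n = 3), with all 3 libraries below those of anemia, and neighbouring groups in the order overlapped. CD45- libraries ranged from 0.242 to 3.89, those of tumor-bearing mice (0.242 to 0.814) being below all others.

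Anxa3, an annexin known from neutrophil granules, set anemia apart. It was at 79.5, 86 and 112 in MDSC, 70.9, 59.6 and 31.7 in tumor CD45+, 51.3, 49.4 and 50.7 in neonatal CD45+ and 3.38, 4.88 and 9.14 in anemia CD45+ cells. Tumor and neonatal cells overlapped, and anemia cells lay below both. CD45- libraries ranged from 0.345 to 1.38. Anxa5, which binds phosphatidylserine, hardly followed this order: 37.2, 32.6 and 34.7 in MDSC, 24.6, 24.4 and 40.5 in tumor, 47.6, 39 and 45.9 in neonatal and 19.2, 22.1 and 35.8 in anemia CD45+ cells. Neonatal CD45+ libraries lay above MDSC, and the other neighbours in the order overlapped. In CD45- cells Anxa5 was at 0.811, 1.2 and 2.1 (tumor), 5.38, 5.65 and 4.95 (neonatal) and 2.65, 3.68 and 3.16 (anemia), with no overlap.

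The neighbours S100a4 and S100a6 differed from each other. S100a6 (calcyclin) was at 847, 1030 and 709 in MDSC, 389, 515 and 141 in tumor CD45+, 62.5, 46.6 and 56.6 in neonatal CD45+ and 31, 29.9 and 97.6 in anemia CD45+ cells. MDSC and tumor cells did not overlap with each other or with the rest, while neonatal and anemia cells overlapped. S100a4 (metastasin), a binder of non-muscle myosin that is common in lymphocytes and macrophages, was at 42.7, 34.9 and 45.7 in MDSC, 15, 22 and 34.9 in tumor, 45.1, 24.5 and 32.2 in neonatal and 48.8, 42.1 and 78.8 in anemia CD45+ cells. Here anemia had the highest mean (56.6 ± 19.5 SD, n = 3), above all tumor CD45+ libraries, and neighbours in the order overlapped. CD45- libraries ranged from 0.522 to 4.27 for S100a6 and from 0.103 to 4.5 for S100a4. B cell markers summed to 739 to 902 in anemia CD45+ cells, 126 to 529 in tumor, 97.4 to 330 in neonatal and 7.69 to 11.8 in MDSC (7 of 7 genes, none at 0), and T and NK cell markers to 147 to 241, 38.7 to 108, 22.5 to 49.9 and 10.9 to 14.3 (8 of 8, none at 0). Their part in the S100a4 values was not tested. For 7 of the 10 genes (S100a8, S100a9, S100a6, S100a11, Anxa1, Anxa2, Anxa3) the means of these 4 groups ran in the order MDSC, tumor, neonatal, anemia. For S100a4, S100a10 and Anxa5 they did not, a split seen only once the values were known. How many of all genes had that order was not counted. Some of its steps were small, as between neonatal and anemia CD45+ means of S100a6 (55.2 and 52.8) and tumor and neonatal CD45+ means of Anxa3 (54.1 and 50.5).

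The first comparison asked how CD45+ differ from CD45- Ter119+CD71+ cells within a status. All 10 genes were higher in CD45+ cells of tumor-bearing mice, of mice with anemia and of neonates, each with an adjusted p below 0.05 (limma, Benjamini-Hochberg) and with libraries that did not overlap. Of all 11195 tested genes 50.2%, 47.4% and 49.6% were called higher in the 3 contrasts, and 53.8%, 50.4% and 55.9% had higher libraries with no overlap, so being called higher was common among all genes here. The median log2 fold change of the 10 was 5.58, 3.89 and 4.11, against 0.75, 0.68 and 0.75 over all tested genes. Rescaling moved that background: after median-ratio scaling the medians of all genes were 0.06, 0.04 and 0.06 and those of the 10 genes 4.85, 3.11 and 3.36, and after quantile normalization -0.08, -0.07 and -0.02 beside 4.83, 3.36 and 3.55. The genes called higher and lower in the tumor contrast numbered 5621 and 1218 as deposited, 3560 and 2852 after median-ratio scaling, 2617 and 3060 after quantile normalization and 4685 and 1613 with haemoglobin genes left out. Fold changes are of value + 1 and understate the change of genes near 1.

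In the tumor contrast the differences were largest for Anxa1 (log2 fold change 7.16 ± 0.66 SE), S100a8 (7.08 ± 0.72), S100a9 (6.74 ± 0.79), S100a6 (6.68 ± 0.55) and Anxa2 (6.01 ± 0.32), with limma adjusted p from 1.7e-10 to 1.4e-06. Anxa3 (5.15 ± 0.31), S100a11 (5.01 ± 0.52), S100a4 (3.75 ± 0.51) and Anxa5 (3.7 ± 0.27) followed. S100a10 had the smallest difference, 2.48 ± 0.5 (adjusted p = 0.00045), and it did not pass after quantile normalization (1.25, adjusted p = 0.074). In anemia the differences ran from 1.56 ± 0.31 for Anxa3 (adjusted p = 0.00035) to 6.25 ± 0.72 for S100a8 (adjusted p = 1.2e-06), and that of Anxa3 did not pass after quantile normalization (0.36, adjusted p = 0.4). In neonates they ran from 2.75 ± 0.5 for S100a10 to 6.11 ± 0.66 for Anxa1. Leaving out any single library kept all 10 calls in each contrast. In CD45- cells, S100a8 and S100a9 together stood at 1.17% (tumor), 0.83% (anemia) and 1.96% (neonatal) of their CD45+ level, and the neutrophil marker sum at 0.586%, 0.781% and 0.87%; whether these reflect the same source was not tested.

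**Figure D3:**
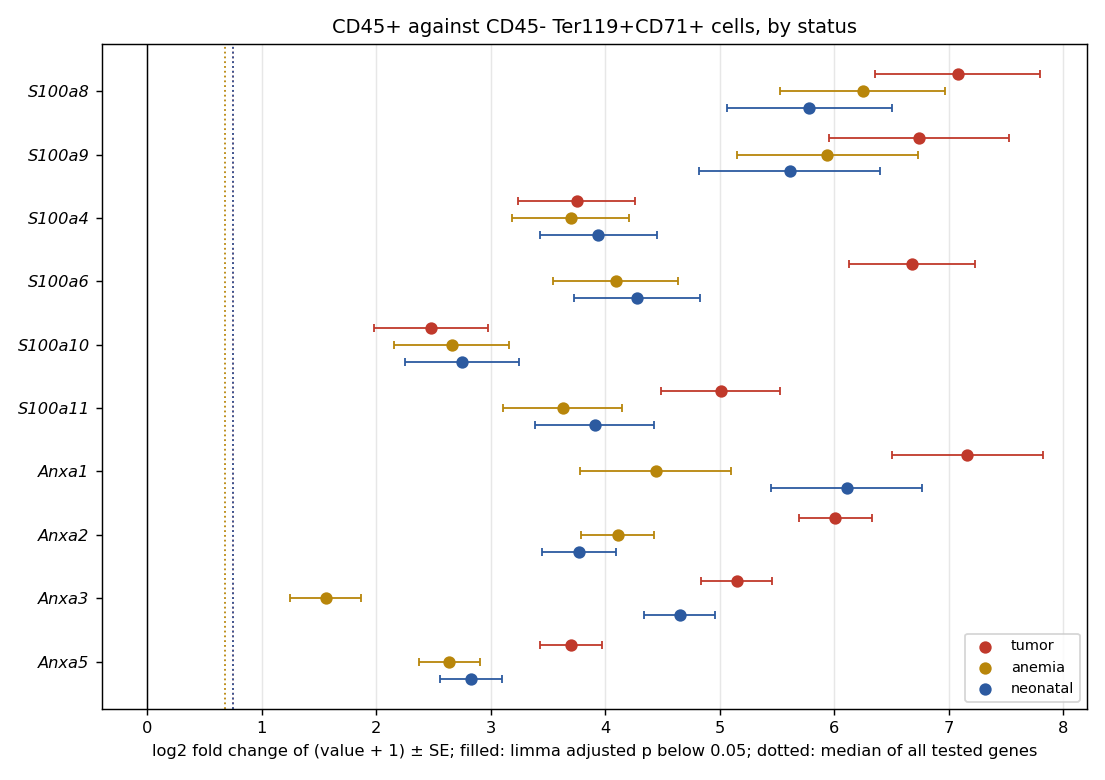
Log2 fold change of value + 1 (± SE) of CD45+ against CD45- cells for the 10 genes in 3 statuses; filled points have a limma adjusted p below 0.05 and dotted lines mark the median of all tested genes (0.75, 0.68 and 0.75). Every point is filled, and Anxa3 in anemia is the lowest at 1.56.

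Whether the CD45 contrast itself differed between statuses was tested with interaction terms. It was larger in tumor-bearing mice than in mice with anemia for Anxa2 (by 1.9 ± 0.45 on the log2 scale, adjusted p = 0.033) and Anxa3 (by 3.58 ± 0.44, adjusted p = 0.00044), 2 of 10 genes where 1.8% of tested genes were called in that direction. Against neonates it was larger for Anxa2 (2.24 ± 0.45, adjusted p = 0.018), 1 of 10 where 0.509% were called. That term combines tumor against neonatal differences of 0.91 in CD45+ cells (adjusted p = 0.11) and -1.33 in CD45- cells (adjusted p = 0.03). Its larger part thus lay in the CD45- cells. There the tumor libraries, at 1.23 to 2.14 beside 5.01 to 7.74 in neonates, were near the pseudocount of 1. Anxa3 had a smaller contrast in anemia than in neonates (-3.08 ± 0.44, adjusted p = 0.00049), 1 of 10 where 2.8% were called. The Anxa3 terms stayed past the threshold whichever library was left out. The Anxa2 term against anemia missed it in 10 of 18 such fits, with adjusted p between 0.054 and 0.11, namely without tumor CD45+ library 1 or 2, anemia CD45+ library 1 or 2, or any single CD45- library of either status. With all libraries it also missed with a pseudocount of 0.1 (adjusted p = 0.077), after median-ratio scaling (0.068) and after quantile normalization (0.054). The Anxa2 term against neonates missed it in 4 of 18, without tumor CD45+ library 2, tumor CD45- library 3, neonatal CD45+ library 2 or neonatal CD45- library 1, with adjusted p of 0.055 to 0.071, and with a pseudocount of 5 (1.57, adjusted p = 0.056). The terms of tumor against anemia for S100a6 (2.59, adjusted p = 0.092) and Anxa1 (2.72, adjusted p = 0.15) did not pass, but passed without library 3 of tumor or of anemia CD45+ cells (3.14 for S100a6, and 3.33 to 3.43 for Anxa1, adjusted p 0.012 to 0.034). The S100a6 term against neonates (2.4, adjusted p = 0.2) passed without tumor CD45+ library 3 (2.95, adjusted p = 0.036). With a pseudocount of 5 the terms of tumor against anemia passed for S100a6 (2.55, adjusted p = 0.027) and Anxa1 (3.54, adjusted p = 0.016), as did that of anemia against neonates for Anxa1 (-2.49, adjusted p = 0.045, against -1.67 and 0.35). With all libraries, no interaction term of the calgranulins passed.

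The second comparison set the CD45+ groups against each other. Tumor CD45+ cells were higher than anemia CD45+ cells for 6 of the 10 genes, where 5.82% of all tested genes were called higher, and lower for none, where 4.91% were. The 6 were Anxa1 (4.73 ± 0.66, adjusted p = 0.00017), S100a8 (4.47 ± 0.72, adjusted p = 0.00064), S100a9 (4.44 ± 0.79, adjusted p = 0.0014), Anxa3 (3.03 ± 0.31, adjusted p = 1.2e-05), S100a6 (2.73 ± 0.55, adjusted p = 0.0034) and Anxa2 (1.85 ± 0.32, adjusted p = 0.0011). The median of the 10 was 2.29 and that of all tested genes -0.03. Of all genes 651 were called higher and 550 lower, and 549 and 773 with haemoglobin genes left out. Libraries did not overlap for 7 genes in the higher direction (13.2% of all) and for 2, S100a4 and S100a10, in the lower direction (11.9%). S100a11 (1.61 ± 0.52, adjusted p = 0.054), S100a4 (-1.23 ± 0.51, adjusted p = 0.15), S100a10 (-1.36 ± 0.5, adjusted p = 0.1) and Anxa5 (0.22 ± 0.27, adjusted p = 0.72) did not pass. S100a11 passed in 6 of the 18 fits that left out a library, those without library 3 of tumor or anemia CD45+, 2 or 3 of tumor CD45- or 1 or 2 of anemia CD45- cells (adjusted p 0.012 to 0.047), with a pseudocount of 5 (adjusted p = 0.012) and in 1 fit over all 21 libraries (adjusted p = 0.034). S100a11 also passed with a block for the replicate number (adjusted p = 0.027). With a pseudocount of 5 S100a4 passed as lower in tumor CD45+ cells (-1.1, adjusted p = 0.021). S100a10 passed without tumor CD45+ library 3 or neonatal CD45+ library 2 (adjusted p between 0.014 and 0.025). Of the 15 neutrophil markers 13 were higher in tumor than in anemia CD45+ cells and none lower, while 6 of 7 B cell and 6 of 8 T and NK cell markers were lower; their part in the result was not tested.

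Against neonatal CD45+ cells, tumor CD45+ cells were higher for S100a6 (2.46 ± 0.55, adjusted p = 0.0095), where 2.2% of tested genes were called higher, and lower for S100a10 (-1.85 ± 0.5, adjusted p = 0.034), where 4.41% were called lower. The S100a6 libraries did not overlap (141 to 515 against 46.6 to 62.5), whereas those of S100a10 did (4.08 to 16.2 against 10.1 to 55.9). S100a6 missed the threshold without tumor CD45+ library 2 (2.08, adjusted p = 0.067). S100a10 missed it without tumor CD45+ library 1 or 2 or neonatal CD45+ library 1 or 3 (-1.71 to -1.41, adjusted p 0.13 to 0.2). Neither passed with a pseudocount of 0.1 (adjusted p = 0.058 and 0.069). S100a8 (1.23 ± 0.72, adjusted p = 0.44) and S100a9 (1.24 ± 0.79, adjusted p = 0.5) did not pass, although their libraries did not overlap; in all, 4 of the 10 genes had higher libraries with no overlap, against 7.99% of all genes. Anxa2 (0.91 ± 0.32, adjusted p = 0.11) passed only without tumor CD45+ library 3 among the fits that left out a library (1.21, adjusted p = 0.021). Of the 15 neutrophil markers 2 were higher and none lower. Kupffer and red pulp macrophage markers were lower for 5 of 7 (median -3.8, sums of 43 to 189 in tumor CD45+ cells, with Clec4f at 0), and eosinophil, mast cell and basophil markers for 4 of 6 (median -2.71, sums of 27.6 to 114). Their part was not tested.

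Anemia CD45+ cells were lower than neonatal CD45+ cells for 6 of the 10 genes, where 11.3% of tested genes were called lower, and higher for none, where 9.08% were. Of all genes 1016 were called higher and 1261 lower, and 1335 and 976 with haemoglobin genes left out. Anxa1 (-3.38 ± 0.66, adjusted p = 0.0012), S100a8 (-3.24 ± 0.72, adjusted p = 0.0036), S100a9 (-3.2 ± 0.79, adjusted p = 0.0075) and Anxa3 (-3.01 ± 0.31, adjusted p = 3e-06) differed most. Anxa2 (-0.94 ± 0.32, adjusted p = 0.044) and Anxa5 (-0.8 ± 0.27, adjusted p = 0.046) were close to the threshold and missed it in 11 and 13 of the 18 fits that left out a library, with adjusted p up to 0.18 and 0.2. For Anxa2 the 7 fits that kept the call left out anemia CD45+ library 3, tumor CD45+ library 2 or 3, or library 3 of tumor or anemia CD45- or 1 or 3 of neonatal CD45- cells. For Anxa5 the call was kept without library 3 of tumor CD45+, anemia CD45+, tumor CD45- or anemia CD45- cells or library 1 of tumor CD45- cells. With all libraries kept, Anxa2 also missed the threshold with a pseudocount of 0.1 (adjusted p = 0.068), after median-ratio scaling (0.1), after quantile normalization (0.059) and with haemoglobin genes left out (0.078), and Anxa5 with a pseudocount of 0.1 (0.1) and with haemoglobin genes left out (0.12). S100a9 missed the threshold without anemia CD45+ library 2 (-2.55, adjusted p = 0.052). The libraries of the 6 genes did not overlap, as for 22.2% of all genes in that direction. Of the 15 neutrophil markers 11 were lower and none higher, and 6 of 7 Kupffer and red pulp macrophage markers and 5 of 6 eosinophil, mast cell and basophil markers were lower too, while 7 of 7 B cell and 7 of 8 T and NK cell markers were higher; their part was not tested. The sums of the macrophage and the eosinophil, mast cell and basophil lists were 757 to 985 and 741 to 1437.8 in neonatal and 58.4 to 76.6 and 11.6 to 26.6 in anemia CD45+ cells, with no marker at 0 in either group.

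The third comparison set the cells of tumor-bearing mice against MDSC, and shares the tumor CD45+ libraries with the comparisons above. None of the 10 genes passed between tumor CD45+ cells and MDSC in limma, where 6.42% of 10255 tested genes were called. All 10 had a lower value in tumor CD45+ cells, from -1.48 ± 0.51 for S100a6 (adjusted p = 0.12) to -0.26 ± 0.27 for Anxa5 (adjusted p = 0.63), with a median of -1.11 against 0.16 over all tested genes. Of all genes 556 were called higher and 102 lower, 340 and 324 after median-ratio scaling and 248 and 144 after quantile normalization. For 7 of them (S100a8, S100a9, S100a6, S100a11, Anxa1, Anxa2, Anxa3) all tumor CD45+ libraries lay below all MDSC libraries, as for 8.87% of all genes. Anxa2 was nearest to the threshold (-1.03 ± 0.28, adjusted p = 0.057) and passed without tumor CD45+ library 2 (-1.26, adjusted p = 0.047), after median-ratio scaling (-1.35, adjusted p = 0.046) and in 1 fit over all 21 libraries (adjusted p = 0.033). With a block for the replicate number, a pairing that the labels do not state, S100a6 (adjusted p = 0.029) and Anxa2 (adjusted p = 0.038) passed. Of the 15 neutrophil markers 3 were lower and 12 did not pass, while 10 of 11 erythroid (median 3.53), 7 of 7 B cell (3.67) and 5 of 7 tested T and NK cell markers (1.78) were higher in tumor CD45+ cells; their part in the lower values of the 10 genes was not tested. Monocyte and macrophage markers (9 of 9 in the table) summed to 380 to 741 in MDSC, 232 to 576 in tumor CD45+, 552 to 807 in neonatal CD45+ and 155 to 364 in anemia CD45+ cells. Their highest mean was in neonatal CD45+ cells (692), whose libraries overlapped those of MDSC, and the part of these markers was not tested. Tumor CD45- cells were lower than MDSC for all 10 genes, where 42.1% were called lower, with a median of -6.56 against -0.56 over all genes and a range from -8.5 ± 0.76 for S100a8 to -3.63 ± 0.48 for S100a10.

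**Figure D4:**
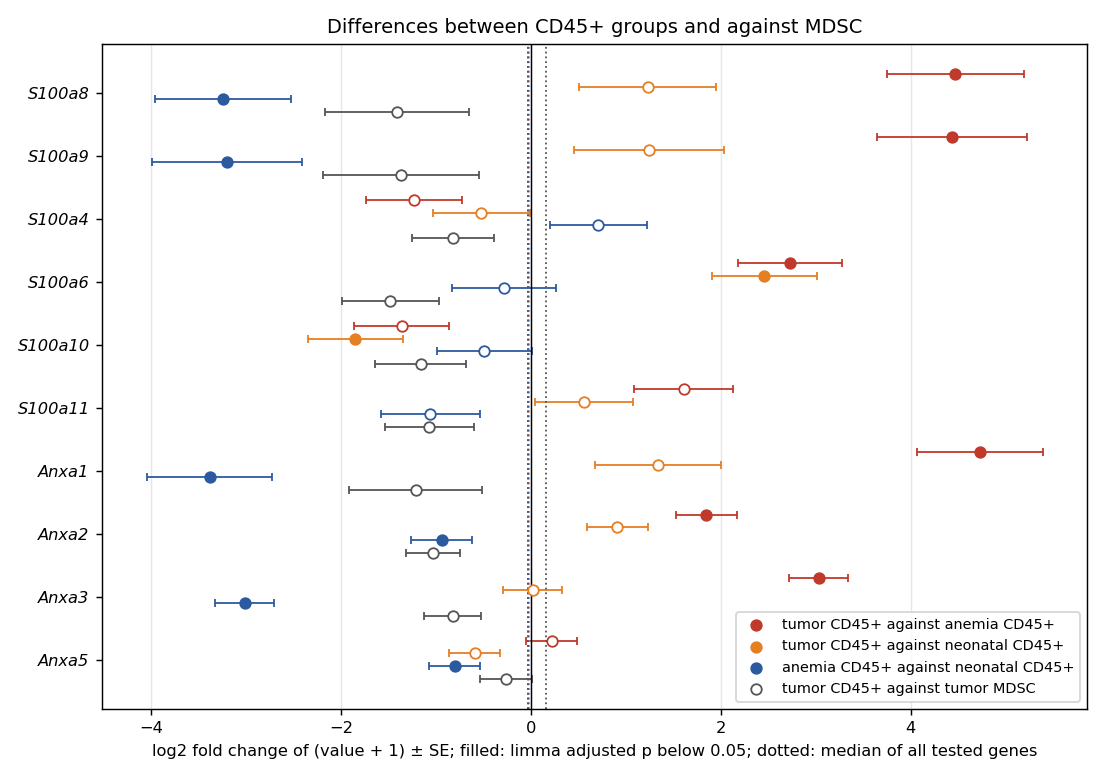
Log2 fold change of value + 1 (± SE) of the 10 genes for 4 comparisons between groups, filled where the limma adjusted p is below 0.05; dotted lines mark the medians of all tested genes (-0.03, -0.02, -0.03 and 0.16). Anxa1, S100a8 and S100a9 lie at 4.73, 4.47 and 4.44 for tumor against anemia CD45+ cells, and every gene lies below 0 against MDSC with no filled point.

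**Figure D5:**
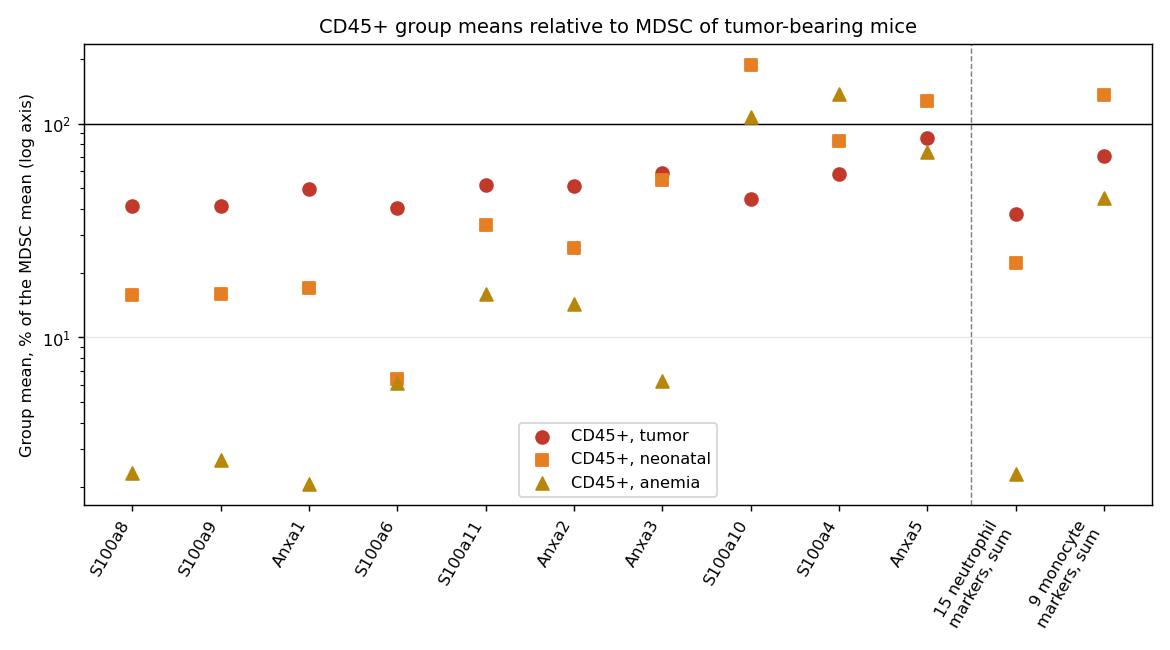
Mean of each CD45+ group (n = 3) as a percentage of the MDSC mean (log axis) for the 10 genes and, right of the dashed line, for the summed neutrophil and monocyte markers. In anemia S100a8, S100a9 and Anxa1 are at 2.32%, 2.67% and 2.06%, near the 2.3% of the neutrophil sum, whereas S100a4 is at 138% and S100a10 at 107%.

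Between CD45- groups the calgranulins also differed. Anemia CD45- cells were lower than neonatal CD45- cells for S100a8 (-3.71 ± 0.72, adjusted p = 0.0058), S100a9 (-3.53 ± 0.79, adjusted p = 0.016) and Anxa2 (-1.28 ± 0.32, adjusted p = 0.029), 3 of 10 genes where 3.39% of all were called lower. S100a9 missed the threshold without library 1 or 2 of either group (adjusted p 0.05 to 0.078), as did Anxa2 (adjusted p 0.065 to 0.14). With a pseudocount of 5 S100a9 (-2.92, adjusted p = 0.054) and Anxa2 (-0.67, adjusted p = 0.27) missed it too. Anxa1 (-1.71, adjusted p = 0.18) passed with a pseudocount of 0.1 (-2.69, adjusted p = 0.044). Tumor CD45- cells were lower than neonatal CD45- cells for Anxa5 (-1.45 ± 0.27, adjusted p = 0.0052) and Anxa2 (-1.33 ± 0.32, adjusted p = 0.03), 2 of 10 where 2.13% were called lower. Anxa2 missed the threshold without any single tumor CD45- library or without neonatal CD45- library 1 or 2 (adjusted p 0.059 to 0.16) and after quantile normalization (adjusted p = 0.085). With a pseudocount of 5 neither Anxa5 (-0.7, adjusted p = 0.15) nor Anxa2 (-0.69, adjusted p = 0.44) passed. S100a10 (-1.58, adjusted p = 0.13) passed in that comparison without neonatal CD45+ library 2 (adjusted p = 0.031) and with a pseudocount of 0.1 (-2.62, adjusted p = 0.0097). Between tumor and anemia CD45- cells none of the 10 passed in limma, where 0.152% of all genes were called. S100a8 (3.63 ± 0.72, adjusted p = 0.059) and S100a9 (3.65 ± 0.79, adjusted p = 0.074) were nearest, and without tumor CD45- library 3, the low one, the values were 4.62 and 4.8 with adjusted p = 0.0023 for both. Both also passed without anemia CD45+ library 3, and S100a8 without tumor CD45+ library 3 or anemia CD45+ library 2, at values of 3.63 and 3.65 with adjusted p up to 0.048. With all 18 libraries S100a8 passed with a pseudocount of 0.1 (3.95, adjusted p = 0.033) and with haemoglobin genes left out (3.68, adjusted p = 0.046), and both passed in 1 fit over all 21 libraries (adjusted p = 0.026 and 0.04). Anxa1 (2 ± 0.66, adjusted p = 0.34) passed without tumor CD45- library 3 (2.87, adjusted p = 0.031). Other genes had lower values in tumor CD45- cells and did not pass, among them S100a4 (-1.28, adjusted p = 0.49), S100a10 (-1.18, adjusted p = 0.57) and Anxa5 (-0.84, adjusted p = 0.34). Here too the neutrophil marker sum, 5.47 to 64.7 in tumor, 24.5 to 50.6 in neonatal and 1.6 to 5.35 in anemia CD45- cells, moved with the calgranulins, although of its 15 genes singly 3 passed in limma between CD45- groups, each lower in anemia than in neonatal cells. Kupffer and red pulp macrophage markers were lower than in neonatal CD45- cells for 5 of 7 genes in both tumor (median -2.77) and anemia (median -2.43) CD45- cells, with sums of 11 to 22.2, 11.3 to 23 and, in neonates, 77 to 127. The part of these lists was not tested.

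Across the 21 libraries, the genes most like the calgranulins in log2(value + 1) were Lcn2, which binds iron-carrying siderophores, Ngp, a neutrophil granule protein, and Chil3, a chitinase-like lectin, for S100a8 (Pearson r = 0.993, 0.982 and 0.977), and Lcn2, Ngp and Wfdc21 for S100a9 (0.99, 0.981 and 0.977). For Anxa1 they were Lcn2 (0.995), Pglyrp1 and Chil3 (0.992 each). Lcn2, Ngp and Chil3 are on the neutrophil marker list. Anxa2 was most like Vim, the intermediate filament vimentin (0.993), and the NADPH oxidase genes Cybb and Ncf4 (0.992 each), and Anxa3 most like Cd63 (0.992), Vill and Rab44. S100a6 was most like Rasgrp4 (0.991), Slc22a15 and Atp11a, and S100a11 most like Pkm, the glycolytic pyruvate kinase (0.986), Tmem120a and Plekhg3. S100a4 had H2-D1, an MHC class I chain (0.971), Lsp1 and Myo9b, and Anxa5 had Hexa, a lysosomal hexosaminidase (0.99), Fam21 and Slc35c2. S100a10 had the weakest best match, Rala at 0.926, then Rab29 and Nsmf. The highest values were picked from 11294 genes, and the 21 points share 7 groups and the split between CD45+ and CD45- cells, so these describe the libraries only. Within the 9 CD45+ libraries of Ter119+CD71+ cells, S100a8 and S100a9 had r = 1, Anxa2 and Anxa3 0.86, and S100a4 and S100a8 -0.66, while S100a4 and S100a10 had 0.65; these points share 3 groups and their libraries.

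Other genes of the families and their pathway were taken from fixed lists. Their counts stand beside the 50.2%, 47.4% and 49.6% of all tested genes called higher in the tumor, anemia and neonatal contrasts. Called lower there were 1218, 1267 and 1156 of 11195 genes. Of 12 other S100 entries 6 were in the table and 4 were tested. In the tumor contrast S100a13 (2.87 ± 0.32) and S100a1 (2.44 ± 0.29) were higher in CD45+ cells and S100a16 and S100pbp, which encodes an S100P-binding protein, did not pass. In anemia 2 were higher (S100a13, S100pbp), and in neonates 2 were higher (S100a1, S100a13) and S100a16 was lower, counts near the share of all genes. After quantile normalization S100a13 and S100pbp no longer passed in anemia nor S100a1 in neonates, and after median-ratio scaling S100pbp did not. S100a2 and S100a7a were blank, and taken as 0, in all CD45- libraries. Of 8 other annexins 5 were tested: 4 were higher in the tumor contrast, Anxa6 (3.7 ± 0.37), Anxa11 (3.49 ± 0.37), Anxa4 (1.74 ± 0.25) and Anxa9 (0.84 ± 0.27), with Anxa4 and Anxa9 no longer passing and Anxa9 changing sign under quantile normalization, and 3 (Anxa4, Anxa6, Anxa11) in both other contrasts. Anxa7 passed in none. After median-ratio scaling 1, 2 and 2 of the 5 annexins were called lower in the tumor, anemia and neonatal contrasts, and after quantile normalization 0, 2 and 2. Of all genes, 2852, 2812 and 2694 of 11004 were called lower after median-ratio scaling. After quantile normalization 3060, 2990 and 2808 of 11195 were, so lower calls were common among all genes under both scalings.

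Of 8 receptors and partners, 5 were higher and 2 lower in the tumor contrast, 2 and 2 in anemia and 4 and 2 in neonates. The counts called higher were near the share of all genes or, in anemia, below it. Higher in tumor-bearing mice were Fpr2, the receptor of Anxa1 (4.37 ± 0.78), Ahnak, a large scaffold bound by the Anxa2 and S100a10 complex (2.55 ± 0.32), Ager (1.92 ± 0.36), Tlr4 (1.68 ± 0.39) and Fpr1 (1.68 ± 0.47). Lower were Bsg, a receptor reported for S100a9 (-2.43 ± 0.35), and the scavenger receptor Cd36 (-2.44 ± 0.42). Under quantile normalization Fpr1, Tlr4 and Ager no longer passed there, Fpr2 no longer passed in anemia, and in neonates none of the 4 (Fpr2, Tlr4, Ager, Ahnak) did. Tlr4 and Ahnak were also lost in neonates after median-ratio scaling. Of 8 transcriptional regulators 6 were tested: Cebpb (6.31 ± 0.65), Spi1, which encodes PU.1 (5.13 ± 0.33), Stat3 (3.94 ± 0.27) and Gfi1 (3.19 ± 0.39) were higher and the erythroid factor Klf1 lower (-3.15 ± 0.38), with 4 higher and 1 lower in each of the 3 contrasts and under each of the 3 other scalings. Cebpb was blank, and taken as 0, in every tumor CD45- library, so its fold change there depends on the pseudocount. Ager (at most 0.682) and Gfi1 (at most 0.454) stayed below 1 in every CD45- library. They were tested only because CD45+ libraries reached 1, so being higher in CD45+ cells was in part fixed by that filter. Fpr1, Fpr2, Tlr4 and Ahnak reached 1 in CD45- cells only in neonates. All tests are limma with Benjamini-Hochberg adjustment, and each value named here as higher or lower had an adjusted p below 0.05.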

How the data were processed

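Total RNA was turned into libraries with an Illumina TruSeq kit, per the labels' protocols. Spleen is the labelled tissue throughout, although the extraction text mentions retinas. Reads were aligned with Bowtie 0.12.2 and the build was mm8, per the submitters' processing notes. The authors deposited log2 expression values per gene for each library; the tool, annotation and scale behind the log are not given in the sources used here, so depth and counting error are unknown. Summed values per library ran from 227961 to 349261. Blank cells (7.9% of the table, none among the 210 values of the 10 genes) were taken as 0.

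Values were taken out of the log, 1 was added as a pseudocount and log2 taken again. A gene was tested if 3 or more libraries of the fit reached a value of 1: 11195 genes among the 18 libraries of Ter119+CD71+ cells, 10255 among the 9 from tumor-bearing mice. Group means were fitted with limma 3.58.1 under R 4.3.3, using its trend and robust options (the latter through statmod 1.5.0), two-sided, with Benjamini-Hochberg adjustment over all tested genes and a threshold of 0.05. The model was tested on simulated data. The 10 genes, the related and marker lists and the tests were chosen with earlier results of these data known. Named genes were the 10, for each the 3 genes with the highest correlation, and up to 4 genes of each related list, to which genes that fell outside were added where a count needed them. The 8 marker lists covered neutrophils, monocytes, erythroid cells, megakaryocytes, B cells, T with NK cells, eosinophils with mast cells and basophils, and Kupffer with red pulp macrophages. The alternatives were other pseudocounts, no filter, 3 scalings, 1 fit over all 21 libraries, a replicate block and leaving out each library. Promoter windows came from a RefSeq table of GRCm38.p6, which is not the build of the reads and was used for sequence and gene order only.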

Additional observations from a re-analysis of the deposited data

Results flagged for a closer look

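Each of the 4 results here is a difference between statuses in the CD45+ against CD45- contrast, by an interaction term in limma with adjusted p over all tested genes. The contrast of Anxa3 was larger in tumor-bearing mice than in mice with anemia by 3.58 ± 0.44 (SE) on the log2 scale (adjusted p = 0.00044), and in anemia it differed from that in neonates by -3.08 ± 0.44 (adjusted p = 0.00049). All 3 CD45+ libraries of anemia (3.38 to 9.14) lay below all tumor (31.7 to 70.9) and neonatal (49.4 to 51.3) CD45+ libraries. The contrast of Anxa2 was larger in tumor-bearing mice than in anemia by 1.9 ± 0.45 (adjusted p = 0.033) and than in neonates by 2.24 ± 0.45 (adjusted p = 0.018). The larger part of the term against neonates lay in CD45- cells (-1.33, adjusted p = 0.03), with tumor libraries at 1.23 to 2.14, near the pseudocount. The CD45+ difference was 0.91 and did not pass (adjusted p = 0.11). The Anxa2 terms missed the threshold in 10 of 18 and 4 of 18 fits that left out a library. With all libraries, the term against anemia also missed it with a pseudocount of 0.1 (adjusted p = 0.077) and after median-ratio (0.068) and quantile (0.054) scaling, and the term against neonates with a pseudocount of 5 (adjusted p = 0.056).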

How the results depend on the processing

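Leaving out 1 library at a time, a group of 2 or 3 is compared with the spread shared by all groups. The number of the 10 genes passing stayed at 10 for the 3 CD45 contrasts and for tumor CD45- cells against MDSC. It ran from 6 to 8 for tumor against anemia CD45+ cells, 0 to 3 for tumor against neonatal CD45+, 3 to 6 for anemia against neonatal CD45+, 0 to 3 for tumor against anemia CD45-, 1 to 3 for tumor against neonatal CD45-, 1 to 3 for anemia against neonatal CD45-, and 0 to 1 for tumor CD45+ cells against MDSC. For the interactions it ran from 1 to 4 (tumor minus anemia), 0 to 2 (tumor minus neonatal) and 1 to 1 (anemia minus neonatal). With a pseudocount of 0.1 the counts became 0 (tumor against neonatal CD45+), 1 (tumor against anemia CD45-) and 1 (tumor minus anemia). With a pseudocount of 5 they became 0 (tumor against neonatal CD45-), 1 (anemia against neonatal CD45-), 4 (tumor minus anemia), 0 (tumor minus neonatal) and 2 (anemia minus neonatal). Median-ratio scaling gave 1 for tumor minus anemia and 1 for tumor CD45+ against MDSC, quantile normalization 1 for tumor against neonatal CD45- and 1 for tumor minus anemia, and leaving out haemoglobin genes 1 for tumor against anemia CD45-. A fit over all 21 libraries gave 2 for tumor against anemia CD45- and 1 for tumor CD45+ against MDSC. The cause was not tested. With no filter on low values no count moved by more than 1.5 times. Under the settings that kept all libraries, S100a10 in the tumor CD45 contrast and Anxa3 in the anemia CD45 contrast lost their calls after quantile normalization, as given in the report; the other calls of the 3 CD45 contrasts were kept.

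Signs turned only for values that did not pass, over the fits that left out 1 library: Anxa3 in tumor against neonatal CD45+ cells (-0.21 to 0.36, turned without tumor CD45+ library 1, -0.21, or 2, -0.09), Anxa5 in tumor against anemia CD45+ (-0.02 to 0.47, turned without tumor CD45+ library 3), S100a6 in anemia against neonatal CD45+ (-0.83 to 0.01, turned without anemia CD45+ library 2), and the S100a9 interaction of tumor minus neonatal (-0.03 to 1.7, turned without tumor CD45- library 3). Scaling also moved the balance of genes called higher and lower in comparisons where the text gives no such split. Median-ratio scaling changed it from 5310 and 1267 to 3282 and 2812 (anemia CD45 contrast), from 5554 and 1156 to 3308 and 2694 (neonatal CD45 contrast), from 1466 and 4316 to 2871 and 3150 (tumor CD45- against MDSC), from 106 and 380 to 286 and 514 (anemia against neonatal CD45-) and from 57 and 64 to 123 and 59 (tumor minus neonatal). Quantile normalization changed it to 2647 and 2990, 2663 and 2808, 2896 and 2495, and 217 and 358 for the first 4 of these, from 45 and 239 to 101 and 248 for tumor against neonatal CD45-, and from 202 and 44 to 166 and 70 for tumor minus anemia. With haemoglobin genes left out the split was 2274 and 3165 for tumor CD45- against MDSC and 161 and 75 for tumor minus anemia.

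Groups share replicate numbers, but were not taken to pair the libraries, since the labels do not say so. Deviations from group means of equally numbered libraries correlated above 0.1 in 9 of 21, 9 of 21 and 17 of 21 pairs for numbers 1, 2 and 3 (medians 0.077, 0.079 and 0.221), against 22 of 126 pairs of different numbers (median -0.0895). Of the 21 libraries 12 correlated best, on average, with their own number, a hint from the data and not the design. With the replicate block 2 of the 10 genes passed for tumor CD45+ cells against MDSC, S100a6 (-1.48, adjusted p = 0.029) and Anxa2 (-1.03, adjusted p = 0.038), and S100a11 passed for tumor against anemia CD45+ cells (1.61, adjusted p = 0.027).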
